A study of Mus musculus with 52 samples.

Results

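Kinesin, cytoplasmic dynein and dynactin genes were followed through ribosome-bound and whole-tissue RNA of the spinal cord of mice that carry mutant SOD1, the basis of a widely used model of amyotrophic lateral sclerosis. Genes were chosen by name, with earlier results of these data known. They are the rows whose symbol starts with Kif and a digit, Dync1 or Dync2, Dynl, or Dctn and a digit. This gave 67 of the 23697 rows of each table, for 61 gene symbols: 38 kinesin rows, 7 rows of cytoplasmic dynein chains, 16 of dynein light chains and 6 of dynactin. Per the labels, bacTRAP reporter mice express an EGFP-tagged ribosomal protein (RPL10A) in selected cells, and precipitation of the tag recovers mRNA on their ribosomes. The promoters that drive the tag are not given in the sources used here. The groups were SOD1 G37R (4 libraries) and non-transgenic (4) in motor neurons at disease onset, G37R (4) and non-transgenic (6) in astrocytes at onset, G37R (4) and non-transgenic (5) in oligodendrocytes at 8 months (onset), and G37R (3), SOD1 G85R (3) and non-transgenic (5) in oligodendrocytes at 11 months (early symptomatic stage). Whole spinal cord RNA came from G37R (4) and non-transgenic (4) mice at 8 months and from G37R (3) and non-transgenic (3) mice at 11 months. The labels give no age in months for motor neurons and astrocytes, all onset libraries are labelled male, and each 11-month group holds both sexes. The libraries are described as biological replicates, so p-values measure the spread between such replicates.

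Kinesins walk along microtubules, mostly toward the plus end, which in an axon points away from the cell body. Cytoplasmic dynein-1 walks the other way, and dynactin is the complex that joins it to cargo and to the track. Motor neurons, whose axons leave the spinal cord, depend on both directions of transport, and variants of KIF5A and DCTN1 are known in human motor neuron disease. The kinesin-2 motor of Kif3a and Kif3b also carries material inside cilia, dynein-2 returns it, and several other kinesins work on the mitotic spindle.

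Levels are FPKM-equivalents, which are values per transcript length and per sequenced fragment, and group values are mean ± SD over libraries. A log2 change compares log2(value + 1) between groups and stands beside its SE. A gene was tested where its mean over a table was at least 1, and called where the Benjamini-Hochberg adjusted p over all genes of the comparison (limma, 2-sided) was under 0.05. Of the 67 rows, 36 were tested in motor neurons, 37 in astrocytes, 37 and 36 in 8-month and 11-month oligodendrocytes, and 41 and 48 in 8-month and 11-month spinal cord. There were 32 rows tested in every table and 18 under the minimum in every table. Overlap or separation of groups describes the libraries of the named gene only. The share of all genes whose groups separate was not counted.

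In control libraries, 12 motor neuron markers summed to 3564 in motor neuron libraries and 252 in 8-month cord, 12 astrocyte markers to 18496 in astrocyte libraries and 3723 in cord, and 13 oligodendrocyte markers to 38849 in 8-month oligodendrocyte libraries and 14072 in cord. Markers of other cells were also present. In controls, oligodendrocyte markers summed to 8158 in astrocyte libraries. Pan-neuronal markers summed to 3459 in 8-month oligodendrocyte libraries and 6617 in 8-month cord, and interneuron markers to 327 and 878. In motor neuron libraries, oligodendrocyte markers summed to 527 and astrocyte markers to 1583. The part of RNA from other cells in the control levels and shares given below was not tested. In 11-month spinal cord, the library labelled G37R 2 had a microglial marker sum of 787, against 1594 and 2129 in the other G37R libraries. The library labelled control 1 had 2549, against 794 and 714 in the other controls. Oligodendrocyte control library 1 at 11 months had an oligodendrocyte marker sum of 18256, against 37134 to 40894 in the other controls, and G85R library 1 had a microglial sum of 665, against 82.4 and 122 in the other G85R libraries. In bulk samples, fewer cells of a type and less RNA per cell cannot be told apart.

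Promoter sequence is printed for 4 genes that rose in 11-month G37R oligodendrocytes, to show what they do and do not share upstream of their starts. Kif3a and Kif3b encode the motor subunits of heterotrimeric kinesin-2, Dync1i1 encodes an intermediate chain of dynein-1 and Kif5c a kinesin-1 heavy chain. The sequences are the 250 bases before the RefSeq start on build GRCm38.p6, plus strand, 5′ to 3′, at chr11:53567119-53567368, chr2:153291166-153291415, chr6:5725389-5725638 and chr2:49619036-49619285. Capitals mark matches, on either strand, to the GC box GGGCGG, the CCAAT box CCAAT, the E-box CACGTG and the cyclic AMP response element TGACGTCA.
Kif3a: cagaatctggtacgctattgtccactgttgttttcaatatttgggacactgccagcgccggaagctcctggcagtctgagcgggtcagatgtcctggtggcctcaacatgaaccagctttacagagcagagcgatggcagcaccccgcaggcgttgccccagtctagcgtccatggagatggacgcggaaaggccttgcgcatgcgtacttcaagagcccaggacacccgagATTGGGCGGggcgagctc
Kif3b: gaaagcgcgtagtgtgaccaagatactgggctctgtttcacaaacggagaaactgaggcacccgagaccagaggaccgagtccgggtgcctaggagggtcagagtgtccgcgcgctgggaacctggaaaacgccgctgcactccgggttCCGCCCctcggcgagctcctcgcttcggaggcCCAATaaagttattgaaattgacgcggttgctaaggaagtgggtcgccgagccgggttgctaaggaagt
Dync1i1: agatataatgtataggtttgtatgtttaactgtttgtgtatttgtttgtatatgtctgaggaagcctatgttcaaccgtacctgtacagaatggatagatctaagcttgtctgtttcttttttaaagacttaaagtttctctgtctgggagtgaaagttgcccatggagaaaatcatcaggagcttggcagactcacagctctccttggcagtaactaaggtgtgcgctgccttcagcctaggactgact
Kif5c: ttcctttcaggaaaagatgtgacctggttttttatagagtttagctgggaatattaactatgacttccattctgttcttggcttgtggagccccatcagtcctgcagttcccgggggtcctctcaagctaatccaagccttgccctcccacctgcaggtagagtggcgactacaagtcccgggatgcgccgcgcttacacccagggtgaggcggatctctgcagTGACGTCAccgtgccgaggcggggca
Kif3a held a CCAAT box on the reverse strand that overlaps a GC box, Kif3b held 1 of each apart, Kif5c held the cyclic AMP response element and Dync1i1 held none of the motifs. Among 32851 promoters of the same length, 32.7% held the GC box, 33.8% the CCAAT box, 6.02% the E-box and 1.55% the cyclic AMP response element. The GC content was 58.8% for Kif3a, 59.6% for Kif3b, 40.8% for Dync1i1 and 55.2% for Kif5c, and the median of all promoters was 52.4%. A promoter was listed for 46 of the 61 symbols, and a match is only a run of letters.

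In control motor neurons the highest levels belonged to small dynein light chains and dynactin subunits. Dynll2, a light chain that also serves other complexes, averaged 1339.6 ± 47.3 (n = 4). Dynlrb1, a roadblock light chain, averaged 1264 ± 34.6, Dynlt3, a Tctex-type light chain, 709 ± 25.5, and Dctn3, a subunit of the dynactin shoulder, 474 ± 60.0. Dctn2 (dynamitin) averaged 282 ± 16.7 and Dctn5, of the dynactin pointed end, 207 ± 7.46. Dctn6 averaged 169.7 ± 7.16 and Dynll1 168 ± 10.7, and these neighbours overlapped in range. The kinesin-1 heavy chains Kif5c and Kif5a, motors of fast anterograde transport, stood next at 158 ± 7.24 and 143 ± 7.03, with overlapping ranges of 149 to 165 and 135 to 150.3.

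Dynlrb1 and Dynll2 also stood high in glia, at lower levels than in motor neurons. Dynll1 averaged 164 in control astrocytes and 168 in control motor neurons, and Dynlrb2 16.5 and 1.56. Dynlrb1 averaged 648 ± 44.2 in control astrocytes (n = 6), and 399.7 ± 46.0 and 412 ± 46.5 in 8-month and 11-month control oligodendrocytes (n = 5 each). Dynll2 averaged 381 ± 35.8 in astrocytes and 251 ± 24.1 and 284 ± 40.5 in oligodendrocytes of these ages. Dctn2 stood second in oligodendrocytes, at 323 ± 29.7 and 328 ± 30.0. Dynlt3 had 709 in motor neurons, 252 in astrocytes and 101 in 8-month oligodendrocytes, where it was not among the 10 highest. These levels come from tables that were normalized separately, so the order between cell types is a description without a test.

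Paralogs split differently between cell types, a measure taken within a library. Kif5c made up 47.5 ± 0.551% of the summed kinesin-1 level in control motor neurons, 25.7 ± 1.32% in astrocytes and 33.5 ± 1.19% in 8-month oligodendrocytes. Kif5b, the widely expressed member, made up 9.31%, 30.4% and 19.2% in the same order of cell types. Of the dynein-1 intermediate chains, Dync1i1 made up 70.5 ± 0.530% in motor neurons, 21.7 ± 1.26% in astrocytes and 30.3 ± 2.96% in 8-month oligodendrocytes, and 54.5 ± 1.15% in 8-month cord. The ranges of these shares in motor neurons did not meet those in astrocytes or in 8-month oligodendrocytes. Kif1c, a kinesin-3 motor of vesicle transport, made up 32.1% of the Kif1 sum in astrocytes, 1.57% in motor neurons and 5.07% in 8-month oligodendrocytes. Kif3c, an alternative partner of Kif3a, made up 60.5% of the Kif3 sum in 8-month oligodendrocytes, 42.3% in motor neurons and 48.3% in astrocytes.

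**Figure D1:**
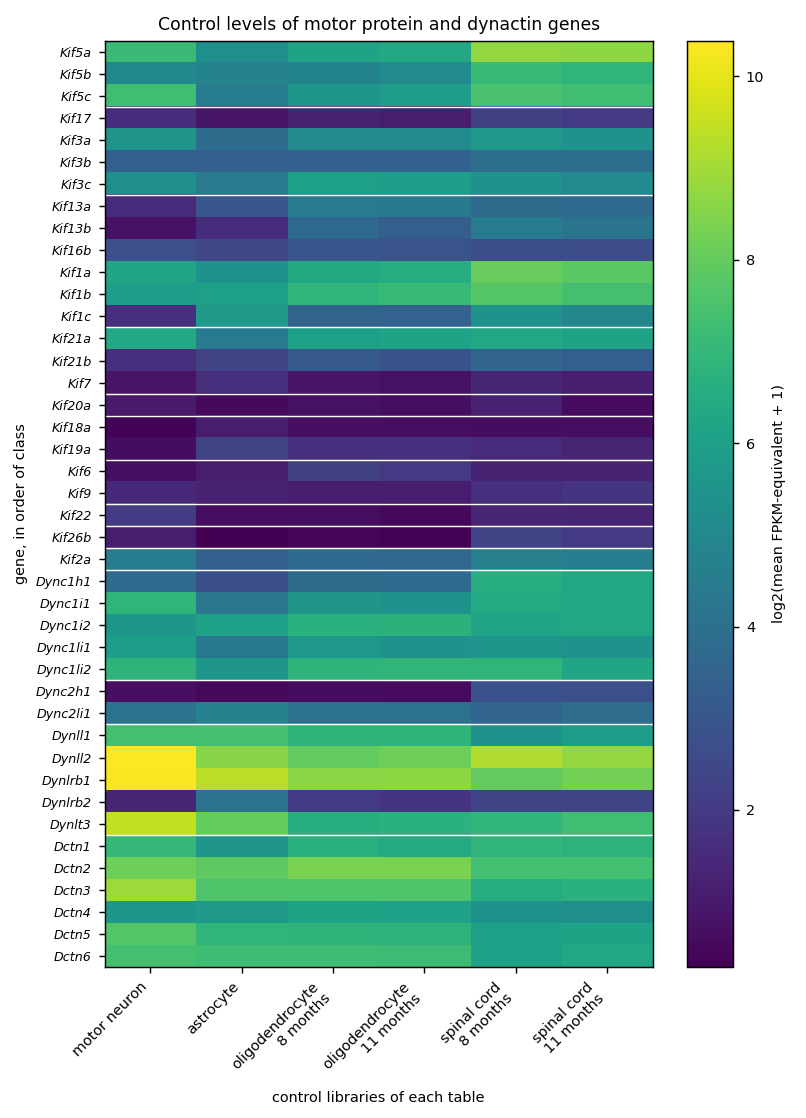
Mean level in control libraries, as log2(FPKM-equivalent + 1) in colour, of the transport genes with a mean of at least 1 in any group of controls, in rows ordered by class and columns ordered by table (4 of purified cells, 2 of whole cord). Dynll2 and Dynlrb1 are brightest in motor neurons, at 1339.6 and 1264, and Dync1h1 is lower in purified cells than in cord. Dynlt1 rows are not drawn.

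Set against whole cord, most transport genes with a mean of at least 1 in either table were lower in purified cells, as were most genes so chosen. The 8-month cord stood beside motor neurons, astrocytes and 8-month oligodendrocytes, and the 11-month cord beside 11-month oligodendrocytes. A log2 ratio here is that of the control mean + 1 in purified cells over the mean + 1 in cord, which understates the ratio of low genes, and a row entered with a mean of at least 1 in either table. In motor neurons 16 of 42 rows were above 8-month cord, with a median log2 ratio of -0.18, while 44.4% of all genes were above, with a median of -0.17. Astrocytes had 15 of 43 above (46.3% of all genes), with medians of -0.67 for transport genes and -0.12 for all genes, and 8-month oligodendrocytes 16 of 42 (41.2%), with medians of -0.38 and -0.28. Oligodendrocytes at 11 months had 17 of 48 rows above 11-month cord (37.6%), with medians of -0.55 and -0.37. Of these 48 rows, 8 were copies of Dynlt1, which had at most 0.155 in these oligodendrocytes and entered through cord alone. Rows that enter through cord alone can only be lower in purified cells. With a mean of at least 1 in both tables, a choice made after seeing the data, 16 of 36 rows were above cord in motor neurons (49.9% of all genes), 14 of 37 in astrocytes (50.8%), 16 of 37 in 8-month oligodendrocytes (47.5%) and 17 of 36 in 11-month oligodendrocytes (44.9%). The medians were then -0.09, -0.56, -0.28 and -0.33 for transport genes, and -0.0023, 0.03, -0.07 and -0.12 for all genes, in the same order of tables. The highest log2 ratios in motor neurons were those of Dynlt3 (2.52), Dctn3 (2.35), Dynlrb1 (2.33), Dynll1 (1.95) and Dctn5 (1.67). The lowest were those of Kif1c (-3.75), Kif13b (-3.69), Dync1h1 (-2.76), Kif13a (-2.28) and Dync2h1 (-2.13). Kif13b and Dync2h1 averaged 0.706 and 0.641 in motor neurons, under the minimum. Among the 36 rows at the minimum in both tables, Kif1c, Dync1h1 and Kif13a stood lowest with and without the added 1, at -4.26, -2.85 and -2.81 without it. Dync1h1, the dynein-1 heavy chain that holds the motor domain, averaged 13.1 ± 1.63 in motor neurons and 94.5 ± 4.23 in 8-month cord. Kif5a averaged 143 ± 7.03 in motor neurons and 427 ± 8.50 in 8-month cord.

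In glia Dync1h1 had the lowest log2 ratio of mean + 1 among the transport genes, at -3.86 in astrocytes, -2.79 in 8-month oligodendrocytes and -2.56 in 11-month oligodendrocytes. Kif5a (-3.44), Kif5c (-2.93), Kif13b (-2.90) and Kif1a (-2.58) followed in astrocytes, and Kif5a (-2.62), Kif5b (-2.24), Dync2h1 (-2.21) and Kif26b (-1.99) in 8-month oligodendrocytes. Dync2h1 and Kif26b averaged 0.553 and 0.326 in 8-month oligodendrocytes, under the minimum, and the order of such genes rests on the added 1. Among rows at the minimum in both tables, Dync1h1 was also lowest in all 3 glial tables without the added 1, at -4.09 in astrocytes and -2.88 and -2.65 in oligodendrocytes of these ages. At the other end, Dynll1 was highest, at 1.91 in astrocytes and 1.38 and 1.02 in oligodendrocytes of these ages. Dynlrb2, a roadblock chain known from ciliated cells, stood at 1.74 in astrocytes, and Dync2li1, the dynein-2 light intermediate chain, at 1.17. In 8-month oligodendrocytes Dctn6 (1.18), Dctn3 (1.08), Dctn2 (0.96) and Kif6 (0.88) followed Dynll1.

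Ratios to cord were lower for genes with longer transcripts. Across the transport genes the rank correlation with the length of the longest protein-coding transcript annotated by GENCODE was -0.70 in motor neurons (42 genes), -0.75 in astrocytes (43), -0.57 in 8-month oligodendrocytes (42) and -0.20 in 11-month oligodendrocytes (48). Across all genes with a length it was -0.49, -0.52, -0.39 and -0.31 in the same order. The 48 rows of 11-month oligodendrocytes hold the 8 Dynlt1 copies that entered through cord alone. Over rows with a mean of at least 1 in both tables it was -0.75 in motor neurons (36 rows), -0.74 in astrocytes (37), -0.53 in 8-month oligodendrocytes (37) and -0.45 in 11-month oligodendrocytes (36), and over all such genes -0.52, -0.53, -0.41 and -0.36. Dync1h1 has 14342 nt, Dynlrb1 788 nt and Dctn3 973 nt. Genes of a table share its libraries and are not independent replicates. The part of transcript length in the cell type ratios was not tested.

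**Figure D2:**
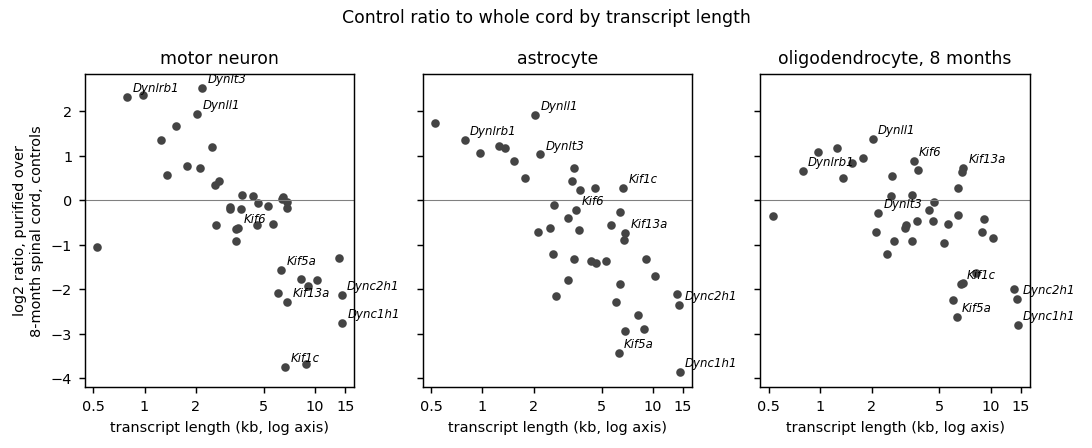
Log2 ratio of the control mean + 1 in purified cells over 8-month whole cord (vertical axis) against transcript length (log horizontal axis), 1 point per transport gene, for motor neurons, astrocytes and 8-month oligodendrocytes. Points run downward with length, to Dync1h1 at -2.76, -3.86 and -2.79. Dynlt1 rows are not drawn.

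In motor neurons at onset Kif3a, Kif3b and Kif13a rose and Dynll2 fell. These were 4 of the 36 transport genes tested (11.1%), against 12.9% of all 12303 genes, of which 6.49% rose and 6.37% fell. Kif3a (chromosome 11, 53380880 to 53417746, mm9) had 60.4, 54.8, 61.0 and 59.1 in the G37R libraries, against 51.4, 42.0, 44.5 and 39.2 in controls. The groups did not overlap, and the log2 change was 0.41 ± 0.08 (SE, adjusted p = 0.0136). Its partner Kif3b had 11.3, 11.1, 12.7 and 14.4 in G37R libraries and 10.2, 8.90, 9.85 and 9.97 in controls, also without overlap (log2 change 0.31 ± 0.08, adjusted p = 0.0354). Kif13a, a kinesin-3 motor of endosomal recycling, had 2.04, 2.32, 3.09 and 3.29 in G37R libraries and 2.02, 1.66, 1.65 and 1.89 in controls (log2 change 0.38 ± 0.11, adjusted p = 0.0457). For Kif13a and Kif3b, G37R libraries 3 and 4 were the highest and G37R library 1 or 2 lay next to the controls. Dynll2 had 1194, 1134, 1054 and 1133 in G37R libraries, all below the 1304, 1313, 1334 and 1408 of controls (log2 change -0.25 ± 0.05, adjusted p = 0.0193).

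Markers of glia and of other neurons moved with the same libraries. All 13 oligodendrocyte markers were higher in G37R motor neurons, 2 of them past the threshold, with sums of 616, 638, 1041 and 1069 against 490.0 to 547 in controls. Of 10 tested microglial markers 9 rose, with sums of 49.5, 47.6, 86.5 and 94.4 against 24.4 to 32.1 in controls. All 10 interneuron markers were higher, 3 of them past the threshold, with sums of 383, 350.4, 449 and 516 against 305 to 391 in controls, and 11 of 12 astrocyte markers were higher, 1 past the threshold, with sums of 1593 to 2124 against 1522.5 to 1670 in controls. Of 12 motor neuron markers 2 rose and 3 fell, with sums of 3285 to 3816 in G37R and 3313 to 3908 in control libraries. In controls, Kif13a averaged 1.80 in motor neurons, 7.16 in astrocytes and 21.4 in 8-month oligodendrocytes. Kif3a averaged 44.3 in motor neurons, 13.6 in astrocytes and 31.8 in 8-month oligodendrocytes, Kif3b 9.73, 9.47 and 9.59, and Dynll2 1339.6, 381 and 251, in the same order of cell types. The part of RNA from other cells in the changes was not tested. Without G37R 3 and 4 together, 0 transport genes were called, in a fit with 2 G37R libraries. Kif3a then had a log2 change of 0.38 (adjusted p = 0.0798) and Dynll2 one of -0.20 (0.0854), near their values with all libraries, and Kif3b had 0.19 (0.171) and Kif13a 0.18 (0.278). Leaving out a single library gave 0 to 7 calls, with 0 without control 2, 1 without control 3 or control 4, 2 without G37R 3 or G37R 4 and 7 without G37R 1.

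The main motors of axonal transport did not pass the test in motor neurons. Kif5a averaged 149 ± 16.2 in G37R and 143 ± 7.03 in control libraries (log2 change 0.06 ± 0.07), and Kif5c 149 ± 14.1 and 158 ± 7.24 (-0.09 ± 0.07). Kif5b had a log2 change of 0.04 ± 0.07. Kif1a, the kinesin-3 motor of synaptic vesicle precursors, averaged 90.8 ± 16.2 in G37R and 76.5 ± 8.15 in control libraries (0.24 ± 0.12, adjusted p = 0.210), and the groups of all these motors overlapped. Dync1h1 averaged 12.01 ± 2.34 in G37R and 13.1 ± 1.63 in control libraries (-0.13 ± 0.13). Dctn1, the p150 subunit of dynactin that binds microtubules, averaged 117 ± 5.27 and 129.7 ± 6.32 (-0.14 ± 0.05, adjusted p = 0.0918). Nearest to the threshold was Dync1i2, the intermediate chain found in most cells, with a log2 change of 0.25 ± 0.08 (adjusted p = 0.0574). All 5 tested light chains had a negative log2 change, from -0.25 to -0.01, and all 4 tested kinesin-2 genes a positive log2 change, from 0.05 to 0.41. The median over the 36 genes was 0.03, and that over all genes 0.01.

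**Figure D3:**
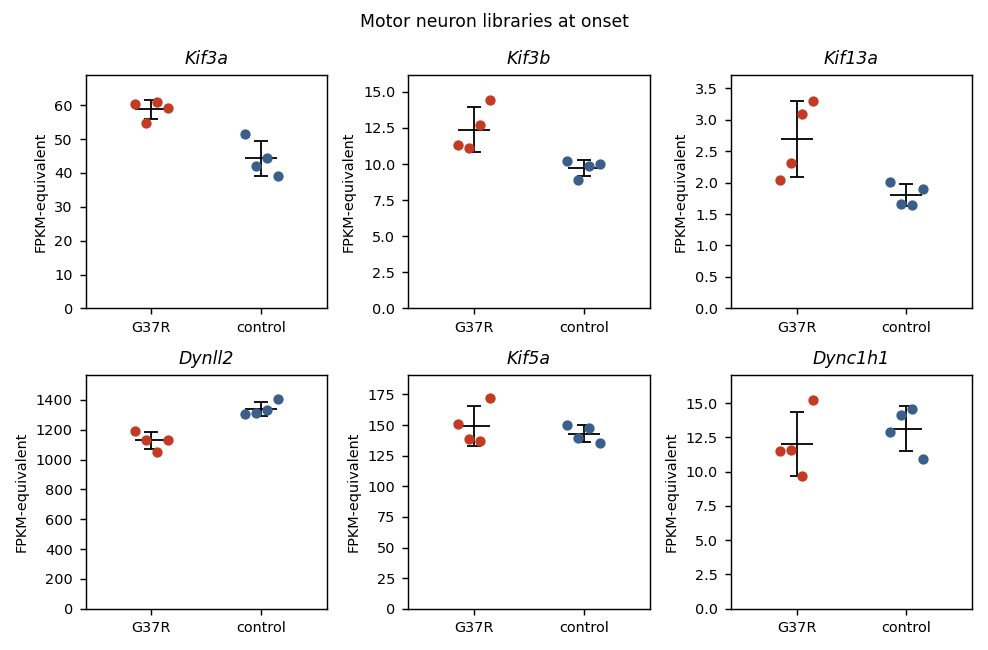
FPKM-equivalents per library (points) with mean and SD (line and bars) in G37R and control motor neurons, for the 4 transport genes that passed the test and for Kif5a and Dync1h1, which did not. The Kif3a libraries lie at 54.8 to 61.0 in G37R and 39.2 to 51.4 in controls, while Kif5a and Dync1h1 overlap.

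In astrocytes no transport gene passed the test of 37 tested (limma), beside 2.34% of all genes. An unadjusted p under 0.05 was found for 3 of the 37, beside 2091 of all 12466 genes. The nearest was Kif21b, a kinesin-4 motor that also restrains microtubule growth, with 2.20, 2.05, 1.73 and 2.50 in G37R libraries, against a lowest of 2.28, a median of 3.92 and a highest of 4.94 in the 6 controls (log2 change -0.59 ± 0.16, adjusted p = 0.0702). The groups overlapped only where G37R library 4 lay above control 5. Without control 5, 1 transport gene was called. Kif5a averaged 39.1 ± 10.4 in G37R and 38.5 ± 6.08 in control astrocytes, with a log2 change of 0.00 ± 0.15. G37R library 4 was the highest of its group for several motors, with 54.5 for Kif5a against 32.8, 35.6 and 33.4 in the others, and 22.1 for Kif3a against 15.8, 13.9 and 12.4. Over the 10794 genes with a length, the log2 deviation of a library from its table's mean had a rank correlation with transcript length of 0.45 in that library and of -0.58, -0.19 and -0.54 in G37R 1 to 3. The rank correlation of the astrocyte log2 change with transcript length was -0.43 over the 37 genes and -0.42 over all genes, and its part was not tested. Of 13 tested microglial markers 10 rose in G37R astrocytes, with sums of 159 to 202 in G37R and 66.6 to 95.3 in control libraries.

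In oligodendrocytes at 8 months no transport gene passed the test of 37 tested (limma), beside 0.109% of all genes. An unadjusted p under 0.05 was found for 6 of the 37, beside 1279 of all 11935 genes. Of the 37, 29 were higher and 8 lower in G37R, with a median log2 change of 0.09 beside 0.01 for all genes. The 3 kinesin-1 genes had log2 changes of 0.40 ± 0.15 for Kif5a, 0.41 ± 0.15 for Kif5c and 0.29 ± 0.11 for Kif5b, with adjusted p of 0.406, 0.396 and 0.417. Kif3a had 36.7, 40.5, 38.5 and 40.7 in G37R libraries and 27.4, 31.4, 31.6, 33.4 and 35.3 in controls, and the groups did not overlap (log2 change 0.29 ± 0.08, adjusted p = 0.285). The 4 kinesin-2 genes, the 6 kinesin-3 genes and the 5 dynein-1 chains also had positive log2 changes, none past the threshold. The rank correlation of log2 change with transcript length was 0.48 over the 37 genes and 0.33 over all genes. Among controls, libraries 1 and 2 had deviations that fell with length, with rank correlations of -0.52 and -0.30, and the part of this in the log2 changes was not tested.

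In oligodendrocytes at 11 months, Kif5a, Kif5c, Kif3a, Kif3b, Dync1i1 and Dync1h1 were among the genes that rose in G37R libraries, and Dctn3, Dctn6 and Dynlrb1 among those that fell. In all, 17 of 36 transport genes passed the test (47.2%), beside 49.0% of all 11733 genes, so the share among transport genes was near that of the table. Of these, 12 rose, beside 26.1% of all genes, and 5 fell, beside 22.9%. The 12 took in 2 of 3 kinesin-1 genes, 3 of 4 kinesin-2 genes and 3 of 5 dynein-1 chains. The 5 took in 2 of 6 dynactin subunits and 1 of 5 light chains. Of the kinesin-3 genes, Kif1a rose, Kif13a fell and the others tested did not pass. No class was tested as a set. Dync1i1 (chromosome 6, 5675638 to 5978039, mm9) had 65.9, 91.7 and 88.0 in G37R libraries, 75.5, 57.8 and 61.8 in G85R libraries, and 39.4, 37.5, 43.1, 49.3 and 48.8 in controls. Kif3a had 52.1, 68.0 and 68.3 in G37R, 59.6, 44.8 and 52.4 in G85R, and 30.5, 27.6, 35.1, 40.4 and 34.4 in controls. For both genes every mutant library lay above every control. The log2 change in G37R was 0.89 ± 0.14 for Dync1i1 (adjusted p = 0.00173) and 0.88 ± 0.14 for Kif3a (adjusted p = 0.00177). The share of Dync1i1 among the intermediate chains was 41.0 ± 2.16% in G37R, 34.8 ± 1.22% in G85R and 28.7 ± 3.40% in control libraries.

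The kinesin-1 genes showed the same order of groups. Kif5a (chromosome 10, 126662750 to 126700419, mm9) had 129, 158 and 166 in G37R libraries, 136, 112 and 109.9 in G85R libraries and 68.1, 71.2, 74.0, 104 and 98.6 in controls. Controls 4 and 5 were the highest controls but stayed below every mutant library. Kif5a rose by 0.87 ± 0.16 on the log2 scale in G37R (adjusted p = 0.00257) and Kif5c by 0.80 ± 0.14 (adjusted p = 0.00257). Kif5b overlapped between groups (log2 change 0.37 ± 0.19, adjusted p = 0.125). Kif3b rose by 0.73 ± 0.15 and Kif1a by 0.63 ± 0.10. Dync1h1 had 18.8, 17.9 and 26.5 in G37R, 26.3, 18.2 and 14.9 in G85R, and 12.8, 13.2, 13, 13.5 and 12.3 in controls, whose spread was the narrowest (log2 change in G37R 0.64 ± 0.16, adjusted p = 0.00974). The other genes that rose were Kif21a, a kinesin-4 motor of axons (0.49 ± 0.14), Dync2li1 (0.49 ± 0.12), Kif17, a kinesin-2 motor of dendrites and cilia (0.46 ± 0.13), Dync1li1, a light intermediate chain (0.43 ± 0.14), and Kif9, a kinesin known from motile cilia (0.31 ± 0.11).

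Dctn3 had 167, 130.1 and 126 in G37R libraries, 128, 171 and 159 in G85R libraries, and 211, 213, 197, 173 and 179.5 in controls, so every mutant library lay below every control (log2 change in G37R -0.47 ± 0.13, adjusted p = 0.0120). Dctn6, a subunit of the dynactin pointed end, fell by 0.48 ± 0.13 and Dynlrb1 by 0.41 ± 0.15 on the log2 scale (adjusted p = 0.0117 and 0.0409). Kif6 fell by 0.28 ± 0.10 and Kif13a by 0.27 ± 0.09. Kif13a had 15.7, 16.2 and 16.5 in G37R, 18.5, 20.1 and 18.4 in G85R, and 20.4, 23.8, 19.3, 17.9 and 17.6 in controls, with G37R below both other groups. Dctn1 and Dctn2 did not pass, with log2 changes of 0.19 ± 0.11 and -0.24 ± 0.09 (adjusted p = 0.181 and 0.0532), nor did Dynll1 (-0.50 ± 0.23), Kif1b (0.19 ± 0.08) or Dync1i2 (0.10 ± 0.09). The rank correlation of the G37R log2 change with transcript length was 0.33 over the 36 genes and 0.26 over all genes. Library deviations had rank correlations with length of -0.42, -0.32, -0.32, 0.23 and -0.10 in controls 1 to 5. In G37R libraries 1 to 3 these were -0.15, 0.30 and 0.26. The part of length in the log2 changes was not tested.

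Neuronal transcripts moved with these changes. In G37R oligodendrocyte libraries 11 of 12 pan-neuronal markers rose and 1 fell, with sums of 5843 to 6956 in G37R, 4651 to 5851 in G85R and 3514 to 4238 in controls. The oligodendrocyte marker sum was 22802 to 30616 in G37R, 27148 to 34507 in G85R and 18256 to 40894 in controls, and 8 of 13 of these markers fell in G37R. Microglial markers summed to 177 to 378 in G37R, 82.4 to 665 in G85R and 67.9 to 103 in controls, with 9 of 13 up in G37R. Astrocyte markers were higher for 10 of 12, with 4 up and 1 down past the threshold, and their sums were 2820 to 3463 in G37R, 2058 to 3051 in G85R and 1858 to 2304 in controls. Of the motor neuron markers 7 of 9 tested rose, with sums of 131 to 173 in G37R and 84.2 to 109.8 in controls, and of the interneuron markers 7 of 10 rose, with sums of 445 to 530 in G37R and 269.6 to 370 in controls. The part of these transcripts in the transport gene results was not tested. Leaving out 1 library gave 7 to 20 calls, with 7 without G37R 3, 8 without G37R 2 and 13 without control 1. Dync1i1, Kif3a, Kif1a, Kif5c, Kif5a and Kif3b stayed under 0.05 in each of 16 alternatives run, and Kif6 (9 of 16), Kif9 (8), Dynlrb1 (8), Dync1li1 (5) and Kif13a (4) lost the call most often. Without G37R 1, Dynll1 (adjusted p = 0.00920), Kif5b (0.0176), Dctn1 (0.0363) and Dctn2 (0.0411) passed, while Kif13a (0.0661) and Kif6 (0.139) did not.

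In G85R oligodendrocytes no transport gene passed the test of 36 tested (limma), beside 0.00852% of all genes. An unadjusted p under 0.05 was found for 14 of the 36, beside 3778 of all 11733 genes. The nearest were Kif3a (log2 change 0.62 ± 0.14), Kif1a (0.47 ± 0.10) and Dync1i1 (0.56 ± 0.14), each with an adjusted p of 0.0911. Without G37R library 1, which enters the shared estimate of the spread, these 3 passed at an adjusted p of 0.0453. The G37R and G85R comparisons share their 5 controls. Set against each other, G85R and G37R differed in 0 of the 36 genes (limma), beside 0.0426% of all genes. An unadjusted p under 0.05 was found for 0 of the 36, beside 1621 of all 11733 genes. The log2 differences, G85R minus G37R, were -0.32 ± 0.15 for Dync1i1, -0.26 ± 0.15 for Kif3a and -0.34 ± 0.17 for Kif5a, which does not show that the genotypes act alike.

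**Figure D4:**
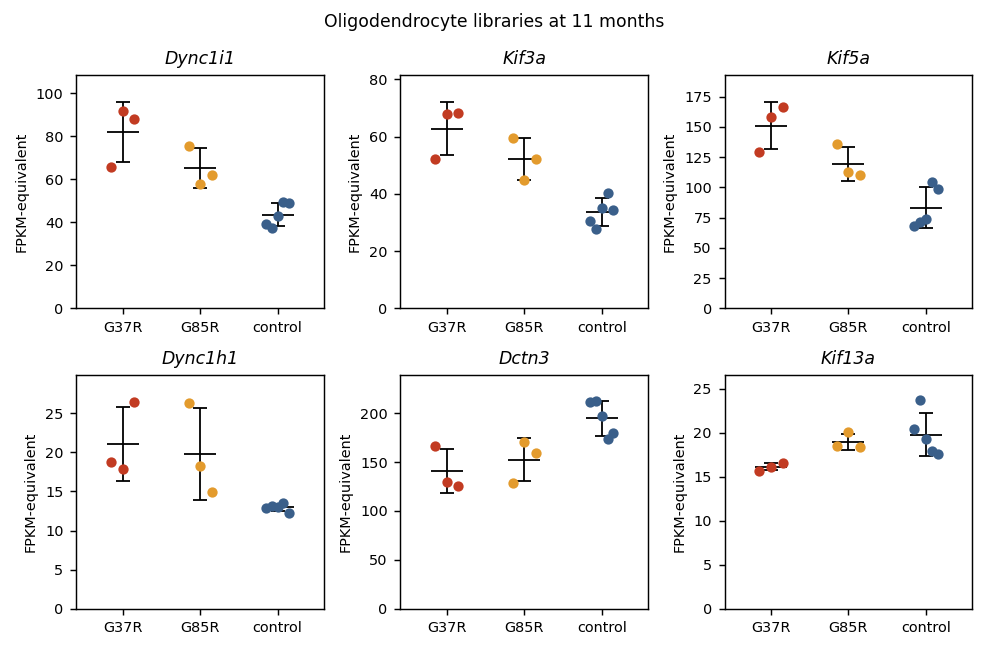
FPKM-equivalents per library (points) with mean and SD (line and bars) in G37R, G85R and control oligodendrocytes at 11 months, for 4 genes that rose in G37R and 2 that fell. For Dync1i1, Kif3a and Kif5a all 6 mutant libraries lie above all 5 controls, and for Dctn3 they lie below.

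In whole spinal cord at 8 months no transport gene passed the test of 41 tested (limma), beside 2.17% of all genes. An unadjusted p under 0.05 was found for 9 of the 41, beside 2167 of all 13828 genes. Of the 41, 33 were lower in G37R (median log2 change -0.06, all genes -0.01). Kif1a averaged 238 ± 2.28 in G37R and 264 ± 8.56 in control cord (-0.15 ± 0.03, adjusted p = 0.0602). Kif1b, a close relative that carries vesicles and mitochondria, averaged 194 ± 4.39 and 213 ± 6.01 (-0.13 ± 0.03, adjusted p = 0.0849). Kif5a had 365, 382, 412 and 386 in G37R cord and 434, 428, 429.7 and 415 in control cord, without overlap (-0.14 ± 0.04, adjusted p = 0.131). Dync1h1 averaged 87.1 ± 5.14 in G37R and 94.5 ± 4.23 in control cord (-0.12 ± 0.05). The rank correlation of log2 change with transcript length was -0.59 over the 41 genes and -0.18 over all genes. In the same libraries 10 of 14 microglial markers rose, with sums of 827 to 1264 in G37R and 482 to 594 in control cord, and 10 of 12 pan-neuronal markers were lower, 0 past the threshold.

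In whole cord at 11 months 0 of 48 transport genes passed (limma), beside 0.0217% of all genes. The 2 with an unadjusted p under 0.05, beside 742 of all 13839 genes, were Kif2a (-0.16 ± 0.05) and Dynlt3 (-0.20 ± 0.07). Kif5a averaged 407 ± 48.3 in G37R and 409 ± 38.0 in control cord. Without the libraries labelled G37R 2 and control 1, an alternative chosen after seeing the data, 0 of 48 transport genes passed. The calls over all genes went to 241. An unadjusted p under 0.05 (limma) was found for 7 of the 48, and the count over all genes is not reported here.

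**Figure D5:**
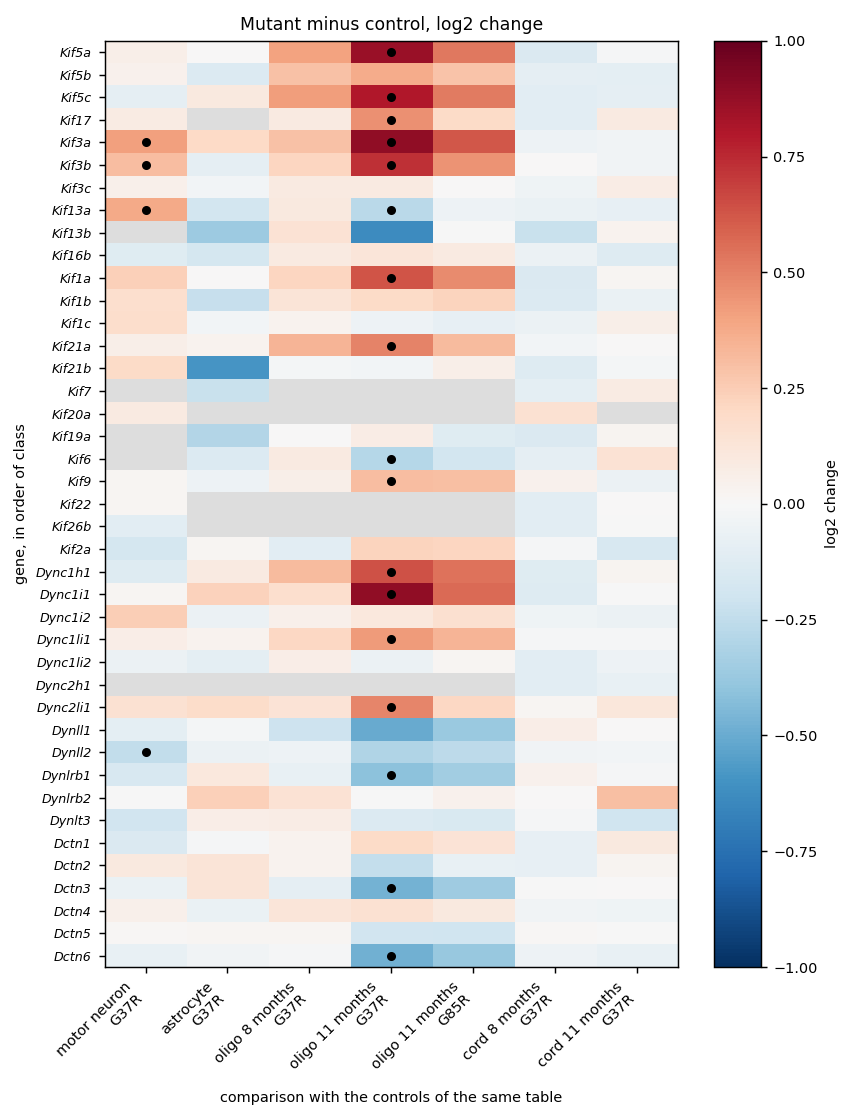
Log2 change (colour) of the tested transport genes other than Dynlt1, in G37R or G85R against the controls of the same table. Genes stand in rows by class and comparisons in columns. A dot marks an adjusted p under 0.05 (limma), and grey marks a gene that was not tested. Dots stand in the motor neuron column (4) and the 11-month oligodendrocyte G37R column (17) and in no other.

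Differences between effects were tested as contrasts on genes kept in both tables. Between motor neurons and astrocytes the G37R effect differed for 2 of 32 transport genes, beside 2.83% of all genes. Kif21b had log2 changes of 0.19 ± 0.08 in motor neurons and -0.59 ± 0.16 in astrocytes (difference 0.78 ± 0.19, adjusted p = 0.0348). Kif13a had 0.38 ± 0.11 and -0.18 ± 0.09 (difference 0.57 ± 0.15, adjusted p = 0.0456). Without motor neuron G37R 3 and 4 together neither passed, with a difference of 0.75 for Kif21b (adjusted p = 0.204) and of 0.37 for Kif13a (adjusted p = 0.317). Without single libraries the count ran from 0 to 6. It was 0 without control 2, 3 or 4 or G37R 3 or 4 of the motor neurons, or without control 1 or 2 or G37R 2 or 3 of the astrocytes. It was 1 without motor neuron control 1, or without control 3, 4 or 6 or G37R 1 of the astrocytes. Without astrocyte G37R 4 it was 6. The rank correlation of this difference with transcript length was 0.54 over the 32 genes and 0.35 over all genes. Kif21b has 9115 nt and Kif13a 6866 nt, and the part of length in the differences was not tested.

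Between oligodendrocyte ages, 11 minus 8 months, the G37R effect differed for 2 of 36 transport genes, beside 14.3% of all genes. The 8-month libraries are labelled male, each 11-month group holds both sexes, and each age has its own table. Age, sex makeup and table therefore cannot be told apart in this difference. Dync1i1 had log2 changes of 0.89 ± 0.14 at 11 months and 0.17 ± 0.08 at 8 months (difference 0.72 ± 0.16, adjusted p = 0.0123), and Kif3a 0.88 ± 0.14 and 0.29 ± 0.08 (difference 0.59 ± 0.16, adjusted p = 0.0251). Kif5a, with a difference of 0.47 ± 0.23, did not pass (adjusted p = 0.154). The count ran from 0 to 9 when single libraries were left out, with 0 without G37R 3, 4 without control 4, 6 without G85R 1 and 9 without G37R 1 at 11 months, and 1 without G37R 1 and 7 without control 1 at 8 months. No transport gene differed between motor neurons and 8-month oligodendrocytes (limma, 0 of 33, beside 1.15% of all genes). Of the 33, 3 had an unadjusted p under 0.05, beside 1913 of all 11304 genes. Between astrocytes and 8-month oligodendrocytes 0 of 36 differed (limma), beside 0.489% of all genes. Of the 36, 3 had an unadjusted p under 0.05, beside 1637 of all 11461 genes. Without astrocyte G37R 4 the count of calls between astrocytes and 8-month oligodendrocytes was 1.

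Partners of the motors were described from lists of adaptors and regulators, microtubule proteins, cilia genes and cell division genes. In motor neurons, 1 of 34 tested adaptors and regulators rose and 3 fell, beside 6.49% and 6.37% of all genes (median log2 change -0.03, all genes 0.01). Mapk8ip3, a scaffold between kinesin-1 and dynein, averaged 79.7 in G37R and 66.2 in control libraries (0.26 ± 0.06), and Klc1, a kinesin-1 light chain, 999 and 1168 (-0.22 ± 0.05). Spag9 and Mapk8ip2, scaffolds of JNK kinases, fell by 0.23 ± 0.04 and 0.31 ± 0.06 on the log2 scale. Of 33 microtubule genes 2 rose and 0 fell (median 0.06). Tubb6, a beta-tubulin, averaged 24.7 in G37R and 17.8 in control motor neurons (0.45 ± 0.08), and Mapt, which encodes tau, 69.9 and 58.6 (0.25 ± 0.07). Tubb6 also rose in G37R astrocytes (18.4 in G37R, 9.86 in controls), in 8-month cord (9.85 and 7.36) and in 11-month G37R oligodendrocytes (10.6 and 3.70). In 8-month cord Stmn4, a tubulin-binding stathmin, fell by 0.29 ± 0.06 on the log2 scale.

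In 11-month G37R oligodendrocytes 12 of 31 adaptors and regulators rose and 3 fell (median log2 change 0.16), and 17 of 33 microtubule genes rose and 2 fell (median 0.42), beside 26.1% of all genes that rose, 22.9% that fell and a median of 0.00. Kifap3, the nonmotor subunit of kinesin-2, averaged 98.5 in G37R and 56.9 in control libraries (0.78 ± 0.12), and Hap1, which links huntingtin to motors, 63.9 and 30.3 (1.06 ± 0.14). Nde1, a dynein regulator, averaged 84.1 in G37R and 166 in controls (-1.004 ± 0.18). Mtap1b, a neuronal microtubule-associated protein, rose by 1.16 ± 0.17 and Stmn2, a neuronal stathmin, by 0.79 ± 0.11 on the log2 scale, beside the pan-neuronal marker sums given above. Of 24 cilia genes 12 rose and 4 fell there (median 0.31), and 3 rose and 1 fell in motor neurons (median 0.08), where 12.9% of all genes were called, against 49.0% in 11-month oligodendrocytes. Wdr35, of the retrograde ciliary transport complex, and Bbs4, of the BBSome, rose in both, with log2 changes of 0.88 and 0.92 in 11-month oligodendrocytes and 0.34 and 0.25 in motor neurons. Ift20, of the anterograde complex, fell in both (-0.54 and -0.33). Limma called 0 genes of these 3 lists in 8-month oligodendrocytes, G85R oligodendrocytes and 11-month cord.

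Kinesins of the mitotic spindle were mostly below the minimum level. Of 17 cell division genes 3 were tested in motor neurons, where Birc5, of the chromosomal passenger complex, fell (10.3 in G37R, 13.8 in controls), and 3 in 11-month oligodendrocytes, where Ccna2, a cyclin, rose (4.82 in G37R, 3.44 in controls). Kif2b was listed at 0 in all 52 libraries, and Kif11, Kif14, Kif15, Kif23 and Kif2c stayed under 1 in every library. Kif22, a kinesin of chromosome arms, averaged 3.30 ± 0.428 in G37R and 3.23 ± 0.363 in control motor neurons (0.02 ± 0.09). The 11 rows of the Dynlt1 light chain are near-identical copies on chromosome 17, among which the authors' processing could split reads, so their values are uncertain. Of these, 8 were tested in 11-month cord, with log2 changes from -0.05 to 0.25, and Dynlt1b also in astrocytes and 8-month oligodendrocytes, and 0 passed the threshold (limma).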

How the data were processed

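RNA of purified cells and whole spinal cord was sequenced as 50 nt single reads after poly(A) selection, per the labels' protocols, in 52 libraries of 13 groups. Reads were processed by the authors with TopHat2 2.0.8b, Cufflinks and Cuffdiff on mouse build mm9, per the submitters' processing notes, which give no role or order. The deposited 11-month spinal cord table holds FPKM values. The deposited values of the other 5 tables, called FPKM by the authors, were about 16774 times larger and were treated as signal, since the same genes in whole cord of both ages differed by that median factor over 13810 genes. They were divided by it to give FPKM-equivalents, and that the factor holds for purified cells is an assumption. It was planned to take all tables as FPKM. No counts were used, so sequencing depth is unknown, and the deepest library of a table, judged by the most common ratio between low values, had 1.21 to 1.67 times the depth of the shallowest.

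Within each table, log2(value + 1) was fitted with limma 3.58.1 in R 4.3.3 (trend and robust settings) over all genes with a mean of at least 1, with 2-sided p-values adjusted by the Benjamini-Hochberg method over all genes tested and a threshold of 0.05. With this pseudocount, changes of genes at low levels are understated. The 3 groups of 11-month oligodendrocytes were fitted together, and differences between effects were contrasts in a fit over both tables. Alternatives were a pseudocount of 0.1, no minimum mean, rescaling by median ratios, the replicate number as a block, sex as a covariate at 11 months, leaving out each library, and leaving out pairs of libraries. Cell type levels were compared without a test.

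Members and gene lists were chosen with earlier results of these data known. Genes were named by rule: 12 core motors in every case, up to 25 called genes per comparison, the 10 highest levels and the 5 highest and lowest ratios to cord per purified cell type, genes past the threshold in a difference, and up to 5 called genes of each other list. Symbols listed as Mtap in the files were matched through RefSeq synonyms. Of the lists, 36 adaptors and regulators, 34 microtubule genes, 24 cilia genes and 17 cell division genes were found.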

Additional observations from a re-analysis of the deposited data

Results flagged for a closer look

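Among 108 pairs of a group and a named transport gene, 7 held 1 library far from the rest of its group. This was judged by the gap to the nearest other library relative to the range of the group. The pairs did not cover every named gene in every group. Chance gives such a gap in about 1 of 20 groups. Kif5a had 54.5 FPKM-equivalents in astrocyte G37R library 4, against 32.8 to 35.6 in the other G37R libraries, and 50.4 in astrocyte control 3, against 33.8 to 38.6 in the other controls. Dynll1 had 207 in astrocyte G37R library 1, against 141 to 150.5 in the others. In 8-month oligodendrocytes Dctn2 was low in G37R library 3 at 314, against 334 to 336 in the other G37R libraries. Dync1i2 had 116 in control 1, against 101 to 104 in the other controls, and Dctn1 had 148 in control 3, against 86.4 to 101 in the other controls. Dync1h1 had 101 in 8-month cord control 2, against 92.2 to 92.8 in the other controls.

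The G37R effect differed between groups of libraries for 4 transport genes by the test of the difference itself (limma). The log2 difference between motor neurons and astrocytes was 0.78 for Kif21b and 0.57 for Kif13a. The log2 difference between 11-month and 8-month oligodendrocytes was 0.72 for Dync1i1 and 0.59 for Kif3a. Age, sex makeup and table cannot be told apart in the difference between 11-month and 8-month oligodendrocytes. The causes of these values were not tested.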

How the results depend on the processing

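Over the transport genes named in the text, 1473 values under alternatives kept their direction and side of the threshold, 101 lost the call, 15 gained one, 64 changed sign without a call in either fit and 0 changed sign with a call. In motor neurons the 4 calls became 2 with no minimum mean and 0 without G37R 3 and 4. The 2 calls between motor neurons and astrocytes became 1 with no minimum mean, 1 with median-ratio rescaling and 0 without motor neuron G37R 3 and 4. Leaving out single libraries gave 0 to 7 calls in motor neurons, 0 to 1 in astrocytes, 7 to 20 in G37R and 0 to 3 in G85R oligodendrocytes at 11 months, 0 to 6 between motor neurons and astrocytes, 0 to 1 between astrocytes and 8-month oligodendrocytes and 0 to 9 between oligodendrocyte ages. The other comparisons stayed at 0 in each alternative run. The causes were not tested. Without motor neuron G37R 3 and 4 the calls over all genes were 261, against 1582 with all libraries, and without G37R 2 and control 1 of the 11-month cord, chosen after seeing the data, 241 against 3. With no minimum mean they were 1026 in motor neurons, against 1582, and 109 between astrocytes and 8-month oligodendrocytes, against 56. Median-ratio rescaling gave 99 higher and 86 lower genes between motor neurons and 8-month oligodendrocytes, against 52 and 78, and 37 and 20 between astrocytes and 8-month oligodendrocytes, against 29 and 27. Sequencing depth is unknown, so its limit on low genes cannot be given.

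With the replicate number as a block (replicate block), 3 transport genes were called in motor neurons, 0 in astrocytes and in 8-month oligodendrocytes, 14 in G37R and 0 in G85R oligodendrocytes at 11 months, 0 in cord of both ages, 0 between motor neurons and astrocytes and 1 between oligodendrocyte ages. Same-numbered libraries did not deviate together in every pair of any comparison (correlations from -0.27 to 0.35). With few libraries per group, these correlations cannot show whether same-numbered libraries share more than a number.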
